A study of Rattus norvegicus with 70 samples.

Results

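The kidneys of 7 female rats were compared: 5 from bisphenol-treated rats and 2 from vehicle rats. They are all the libraries labelled as female kidney among the 70 of the series. All were Sprague-Dawley rats aged 63 days. Dams of the BPA group received bisphenol A (BPA) at 500 mg/kg/day by mouth; dosing began at gestation day 6 and stopped at lactation day 6. Dams of the mixture group (Mix) received the same total dose as BPA at 160, bisphenol F (BPF) at 160 and bisphenol S (BPS) at 180 mg/kg/day. Litters were reduced on postnatal day 4 to 3 pups of each sex per dam, and the pups then received their dam's substance at 250 mg/kg/day from postnatal day 7 to 63. The vehicle group received no bisphenol, and the vehicle itself is not named in the sources used here. The female kidney libraries are vehicle 1 and 2 (rats G112 and G113), BPA 1 and 2 (G127 and G128) and Mix 1 to 3 (G201 to G203). Which rats were littermates is not given, so p-values measure the spread between these rats, and dosing in the womb, through milk and by mouth cannot be told apart.

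The kidney filters plasma through capillaries covered by podocytes and recovers most of the filtrate in the proximal tubule, a segment rich in mitochondria. The loop of Henle, distal tubule and collecting duct then set the salt and water content of the urine. Bisphenols share a pair of phenol rings and differ in the bridge between them, which is an isopropylidene group in BPA, a methylene group in BPF and a sulfonyl group in BPS. They bind estrogen receptors weakly, are conjugated mainly with glucuronic acid, and leave the body largely through the kidney.

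Libraries of messenger RNA 3′ ends held 4803807 to 7186849 counts. Ribosomal RNA rows took 37.1% of the counts of vehicle 1, 19.2% of vehicle 2 and 17.2% to 20.9% of the treated libraries. The means were 28.2% ± 12.6 (SD, n = 2) and 18.8% ± 1.80 (SD, n = 5), with an exact two-sided permutation p of 0.286, where 0.0952 is the smallest these group sizes allow. The vehicle libraries also stood apart from each other. On log2 CPM, the count scaled to a common library size, vehicle 2 was alone at one end of the first principal component (26.4% of the variance) and vehicle 1 alone at one end of the second (21.5%). The pair had a correlation across genes of 0.923, against 0.942 to 0.966 between treated libraries. The Y-linked gene Eif2s3y had no count in any female kidney. Kap, an androgen-regulated protein of the proximal tubule, stood at 3527 to 7288 CPM and Umod, the urinary glycoprotein of the thick ascending limb, at 885 to 1924 CPM, in accord with the kidney label.

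No gene passed an adjusted p of 0.05 between the 5 treated and 2 vehicle kidneys with edgeR's quasi-likelihood test, out of 10681 tested; the smallest adjusted p was 0.119. The percentage called was 0 in either direction. An unadjusted p below 0.05 was reached by 769 genes with higher values in treated kidneys (7.20% of those tested) and 685 with lower values (6.41%). With DESeq2, 232 genes passed, 177 higher and 55 lower. It gave no adjusted p for 9119 rows, so its count comes from a smaller set of genes than edgeR's. With edgeR the count was 323 when vehicle 1 was left out, a fit in which vehicle 2 alone stands for its group and is assumed to vary like the treated libraries, and 0 when vehicle 2 was left out. It was 41 with no filter on low counts, 398 with the ribosomal RNA share as a covariate and 12 in a joint fit of all 16 kidney libraries. That share was 37.1% in vehicle 1 and 17.2% to 20.9% in every other library, so the covariate fit comes near to leaving out vehicle 1. The values below are therefore a description of these 7 rats, and no single gene is called changed. A gene's groups are said to be apart where every treated value lies on one side of both vehicle values. This held for 1035 genes with higher treated values (9.69%) and 966 with lower ones (9.04%).

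The 6 genes with the smallest p among those with lower values and groups apart included a basement membrane collagen, transcription factors and a heat shock protein. Col4a4, a type IV collagen chain of the glomerular basement membrane, stood at 270 and 155 CPM in vehicle 1 and 2. In treated kidneys it stood at 60.3 and 36.7 (BPA) and 50.6, 74.2 and 44.0 CPM (Mix). The lowest vehicle value was thus about double the highest treated one, and the log2 difference was -1.99 ± 0.27 (SE), a 3.99-fold lower level in treated kidneys with an adjusted p of 0.119 in edgeR. Tcf21, a transcription factor of podocytes and stromal cells, stood at 27.1 and 33.2 CPM in vehicle and at 8.26, 11.6, 7.72, 8.64 and 11.3 CPM in BPA 1 and 2 and Mix 1 to 3. Its log2 difference was -1.67 ± 0.24 (SE) and its adjusted p 0.119 in edgeR.

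Col4a3, the partner chain of Col4a4, was looked at after the value of Col4a4 was seen. It stood at 64.0 and 52.3 CPM in vehicle and 22.1, 15.9, 49.0, 21.4 and 28.0 CPM in treated kidneys, with groups apart, a log2 difference of -1.08 ± 0.34 (SE) and an unadjusted p of 0.00816 in edgeR. The start sites of these genes lie head to head. Their promoter windows of 300 bases are shown because both genes had lower values and the windows share 88 bases, printed in capitals. The sequences are RefSeq's on build GRCr8, 5′ to 3′ on each gene's own strand, at chr9:91323740-91324039 on the plus strand for Col4a3 and chr9:91323528-91323827 on the minus strand for Col4a4.
Col4a3: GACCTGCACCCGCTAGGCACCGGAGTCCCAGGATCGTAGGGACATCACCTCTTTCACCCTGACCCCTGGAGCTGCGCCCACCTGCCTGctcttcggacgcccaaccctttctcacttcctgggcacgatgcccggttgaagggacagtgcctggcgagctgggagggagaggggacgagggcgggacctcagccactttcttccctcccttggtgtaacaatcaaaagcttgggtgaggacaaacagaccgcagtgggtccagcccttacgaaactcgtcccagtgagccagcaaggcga
Col4a4: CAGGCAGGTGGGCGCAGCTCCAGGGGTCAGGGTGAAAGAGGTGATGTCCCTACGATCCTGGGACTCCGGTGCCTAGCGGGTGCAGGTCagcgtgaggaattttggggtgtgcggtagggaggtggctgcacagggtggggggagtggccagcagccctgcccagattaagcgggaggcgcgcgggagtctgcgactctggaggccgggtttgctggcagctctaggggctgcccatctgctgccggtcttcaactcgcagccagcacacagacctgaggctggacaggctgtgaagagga
The capitals of one are the reverse complement of the capitals of the other. Of all 33469 promoter windows in the table, 3421 (10.2%) overlap a window of another gene on the opposite strand.

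Smaller gaps or lower levels were seen in the remaining genes of this group. Mylip, a ubiquitin ligase that removes the LDL receptor, stood at 41.3 and 33.2 CPM in vehicle and between 14.1 and 17.5 CPM in the 5 treated kidneys (log2 difference -1.27 ± 0.20, SE). Slc38a7, an amino acid transporter of the lysosome, stood at 32.4 and 23.9 CPM in vehicle and between 6.33 and 11.5 CPM in treated kidneys (-1.60 ± 0.26). Bhlhe22, a basic helix-loop-helix transcription factor, stood at 10.1 and 14.0 CPM in vehicle and between 1.97 and 3.69 CPM in treated kidneys (-2.03 ± 0.39). In each the treated values lay well under both vehicle rats.

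Hspa1b, an inducible HSP70 chaperone, stood at 77.5 and 101 CPM in vehicle and 46.9, 23.5, 19.1, 36.2 and 29.0 CPM in treated kidneys (-1.53 ± 0.28). Its near-identical copy Hspa1a stood at 54.0 and 74.97 CPM in vehicle and 36.4, 18.6, 19.8, 27.4 and 30.5 CPM in treated kidneys (-1.28 ± 0.25). BPA 1 was the treated rat nearest the vehicle rats in both. How reads shared by such copies were counted is not given, so their separate values are uncertain.

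Among the 6 genes with the smallest p and higher values were enzymes of detoxification, sulfur amino acids, amines and steroids. Mgst3, a microsomal glutathione transferase, stood at 255 and 166 CPM in vehicle and 525, 673, 567, 511 and 518 CPM in treated kidneys. Every treated value was at least double the higher vehicle value, with a log2 difference of 1.41 ± 0.23 (SE), a 2.66-fold higher level. Cbs, which condenses homocysteine with serine, stood at 118 and 84.9 CPM in vehicle and between 209 and 265 CPM in treated kidneys (1.16 ± 0.20). Ddc, the decarboxylase that makes dopamine in the proximal tubule, stood at 121 and 56.5 CPM in vehicle and between 217 and 283 CPM in treated kidneys (1.53 ± 0.28).

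Akr1c14, a 3α-hydroxysteroid dehydrogenase, had the widest gap of the 6 with higher values. It stood at 2.23 and 3.57 CPM in vehicle, 10.7 and 9.17 CPM in BPA and 22.2, 14.8 and 18.6 CPM in Mix, a 5.14-fold higher level over the treated rats (2.36 ± 0.44). Psmc4, an ATPase subunit of the proteasome, stood at 42.7 and 31.7 CPM in vehicle and between 70.6 and 82.2 CPM in treated kidneys (1.04 ± 0.18). Tmbim6, a membrane protein of the endoplasmic reticulum that restrains cell death, stood at 177 and 134 CPM in vehicle and between 281 and 347 CPM in treated kidneys (1.02 ± 0.19). The adjusted p of these 6 genes was 0.151 in edgeR. Each of the 12 genes kept its direction in every alternative that gave it a value (14 or 15 per gene). All 12 were picked for groups apart, so leaving out a library could hardly reverse them, and this result was largely fixed by the choice.

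**Figure D1:**
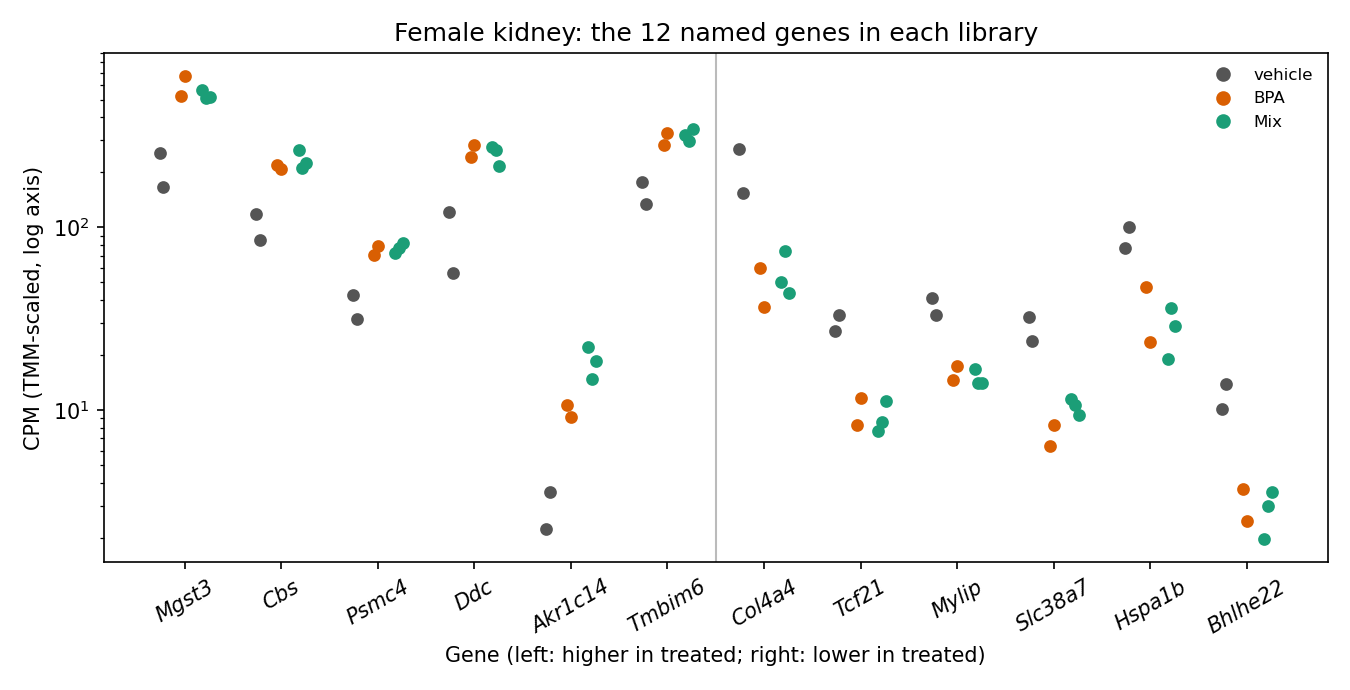
Level of the 12 genes (x axis) in CPM on a log axis, 1 point per female kidney library: grey vehicle (2), orange BPA (2), green Mix (3). The vehicle points lie below all treated points for the 6 genes on the left, for example 255 and 166 against 511 to 673 CPM for Mgst3, and above them for the 6 on the right, for example 270 and 155 against 36.7 to 74.2 CPM for Col4a4.

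The same 12 genes were set beside the kidneys of the male rats. In the joint fit of 16 libraries 11 of the 12 had the opposite sign in male kidneys. Their male log2 differences ran in size from -0.11 ± 0.15 (SE) for Psmc4 and 0.13 ± 0.42 for Bhlhe22 to 1.83 ± 0.65 for Slc38a7. The share of all genes with opposite signs is not given here, so the tally is a description. Col4a4 stood at 31.6 to 51.0 CPM in the 3 male vehicle kidneys and at 246, 205 and 84.4 CPM in male BPA 1 to 3. In male Mix 1 to 3 it stood at 220, 49.9 and 32.4 CPM. The male kidneys with high Col4a4 were thus treated ones, while the female kidneys with high Col4a4 were the vehicle pair.

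Ribosomal RNA took 37.2%, 16.4% and 36.9% of counts in male BPA 1 to 3 and 20.2% in male Mix 1, against 1.42% to 6.04% in the other 5 male kidneys. These same 4 male libraries had Slc38a7 at 37.1 to 66.3 CPM, against 4.39 to 15.2 CPM in the other 5. They also had Mgst3 at 312 to 377 CPM against 453 to 702 CPM. In females the treated kidneys, with shares of 17.2% to 20.9%, had Col4a4 at 37.6 to 76.6, Slc38a7 at 6.54 to 11.9 and Mgst3 at 527 to 690 CPM on the same joint scale. At a like share of 19.2%, female vehicle 2 had 160, 24.7 and 171 CPM. Among males the 4 libraries with more ribosomal RNA thus lay apart from the other 5 in these 3 genes, which were chosen after their values were seen. Cbs, Ddc and Tmbim6 also split this way, with lower values in the 4 libraries with high shares. Ddc, for example, stood at 54.2 to 107.6 CPM in those 4 male kidneys and at 151.8 to 295.2 CPM in the other 5. The remaining genes of the 12 did not split by share. Hspa1b stood at 13.2 CPM in male Mix 1, under all 5 male kidneys with low shares, and at 48.9 CPM in male Mix 3, above 3 of the 4 with high shares. Psmc4 stood at 77.7 CPM in male BPA 3, within the 74.5 to 86.1 CPM of the 5 with low shares. The part of RNA quality in the female difference was not tested.

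**Figure D2:**
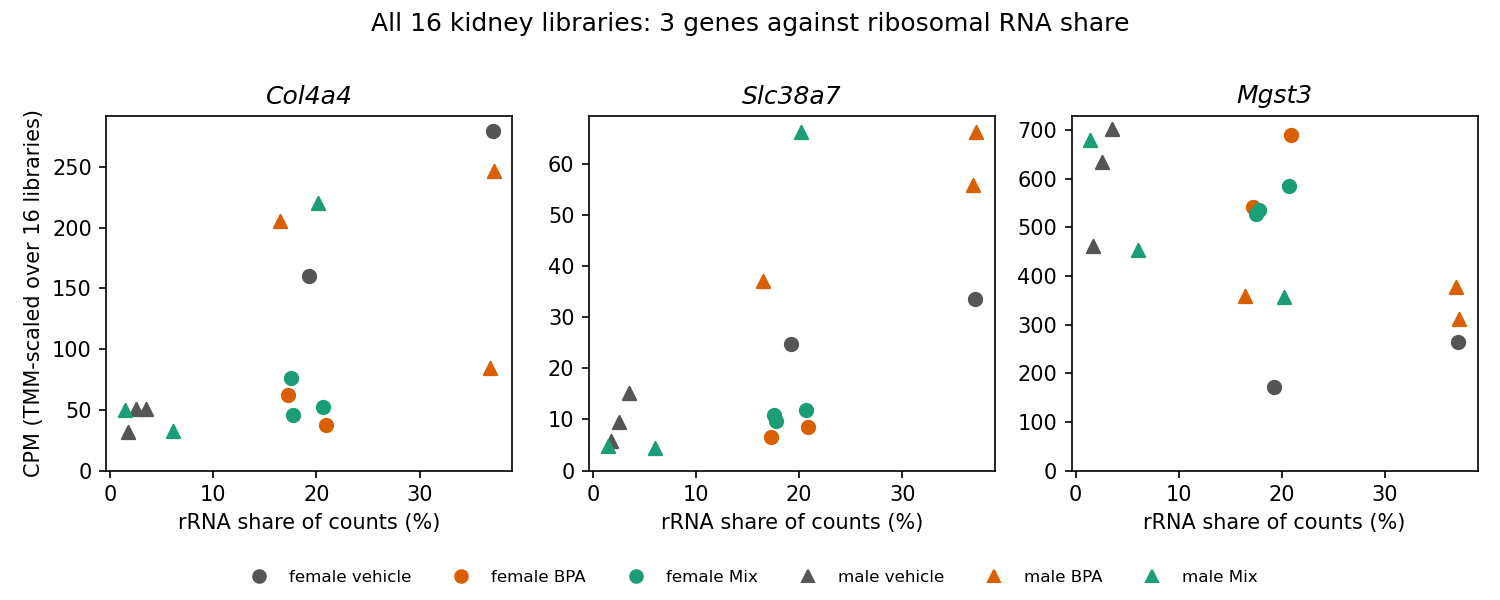
Col4a4, Slc38a7 and Mgst3 in CPM (y axes from 0) against the ribosomal RNA share of counts in percent (x axes) in all 16 kidney libraries; circles are female, triangles male, and colours give the treatment. Col4a4 is above 150 CPM in both female vehicle, 2 male BPA and 1 male Mix kidney, and the 5 female treated circles stay under 77 CPM at shares of 17.2% to 20.9%.

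The difference between the sexes passed an adjusted p of 0.05 in edgeR for 0.970% of 11651 genes, 68 with a more positive value in females (0.584%) and 45 with a more negative one (0.386%). The count moved by more than 1.5 times when any 1 of the 16 libraries was left out, from 1 without any single male vehicle library or without female BPA 2 to 812 without male Mix 2. Tcf21 had the smallest p, with a female minus male log2 difference of -2.69 and an adjusted p of 0.00267. It stood at 23.1 to 27.8 CPM in male BPA kidneys and at 7.58 to 9.39 CPM in male vehicle kidneys, the reverse of the female order. Male Mix 1 to 3 had 8.88, 14.0 and 10.9 CPM, with Mix 1 inside the male vehicle range, so the reversal was mainly in the male BPA rats. Mylip (-2.12), Dmbt1, a secreted mucin-like protein (-2.64), and Abca8a, an ATP-binding cassette transporter (-2.19), differed the same way between the sexes. Leaving out each of the 16 libraries in turn, Tcf21 passed every time, whereas Mylip lost its call in 4 fits, Abca8a in 7, Dmbt1 in 8 and Basp1 in 8. Basp1, a membrane-bound signalling protein, differed the other way (1.63). It stood at 36.2 and 63.4 CPM in female vehicle and 93.2 to 133 CPM in female treated kidneys. In male kidneys it stood at 240 to 270 CPM in vehicle and 160 to 220 CPM in treated rats. Dmbt1, Abca8a and Basp1 split by ribosomal RNA share among male kidneys, with BPA 1 to 3 and Mix 1 apart from the rest. Dmbt1 stood at 13.3 to 18.0 against 5.86 to 11.8 CPM, Abca8a at 44.4 to 83.9 against 17.8 to 36.6 CPM. Basp1 stood at 160 to 189 against 191 to 270 CPM. Tcf21 and Mylip did not split this way, and the part of RNA quality was not tested.

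Gene lists by segment and cell type showed how far each vehicle rat carried the comparison. No member of any list passed the adjusted threshold in edgeR, so lists are given as counts and medians. The median log2 difference of all 10681 genes was 0.0037, and 50.4% of them were positive. Groups were apart upward in 9.69% of all genes and downward in 9.04%, the shares to set beside each count of members apart. In whole kidney, fewer cells of a type and less RNA per cell cannot be told apart. For the proximal tubule, 16 of 20 markers had positive differences with a median of 0.64, and 7 had groups apart upward. Slc5a2, the glucose transporter SGLT2, stood at 188 and 27.3 CPM in vehicle and 216 to 297 CPM in treated kidneys. Pck1 and Fbp1, enzymes of glucose synthesis, had values of 4581 and 2043 CPM and of 918 and 458 CPM in vehicle 1 and 2. In treated kidneys Pck1 stood at 4555 to 7512 and Fbp1 at 1192 to 1459 CPM. Aqp1, the water channel of the proximal tubule and thin limb, stood at 1395 and 927 CPM in vehicle and 1597 to 2072 CPM in treated kidneys. In all of these vehicle 2 was the lowest of the 7. Aqp1 was also the 1 positive member of the 7 thin limb markers (median -0.58). Kap, also on the proximal tubule list, overlapped, at 4797 and 4355 CPM in vehicle and 3527 to 7288 CPM in treated kidneys (0.21 ± 0.29). Markers of the proximal straight segment did not rise as a list: 3 were positive and 4 negative (median -0.28), with 2 apart downward. Among them Slc7a13 stood at 1717 and 1861 CPM in vehicle and 1100 to 1448 CPM in treated kidneys.

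The lists of podocytes and of distal segments went the other way, again through vehicle 2. All 9 podocyte markers had negative differences (median -0.40), with none apart. Nphs1, the slit diaphragm protein nephrin, stood at 69.0 and 193 CPM in vehicle and 61.5 to 103 CPM in treated kidneys, and Podxl, the podocyte surface sialomucin, at 91.1 and 169 against 58.6 to 125 CPM. In the thick ascending limb 8 of 9 markers were negative (median -0.49). Its Umod stood at 1224 and 1924 CPM in vehicle and 885 to 1196 CPM in treated kidneys, the 1 member with groups apart. The salt transporter Slc12a1 stood at 717 and 1421 CPM against 482 to 1497 CPM. Slc12a3, the thiazide-sensitive transporter of the distal convoluted tubule, stood at 130 and 495 CPM in vehicle and 224 to 345 CPM in treated kidneys, which lay between the vehicle rats. Of 13 markers of the connecting tubule and principal cell 7 were negative (median -0.20), and of 10 intercalated cell markers 9 (median -0.32).

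Without vehicle 2 these medians changed sign: podocyte to 0.14, thick ascending limb to 0.11, distal convoluted tubule to 0.69, principal cell to 0.65 and intercalated cell to 0.49. The proximal tubule median shrank to 0.17. Without vehicle 1 the proximal tubule median was 1.07, and 10 of its 20 markers passed upward in edgeR, against 2.19% of all 11276 genes in that fit (0.674% passed downward). For these lists the direction, or its size, rests on vehicle 2.

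**Figure D3:**
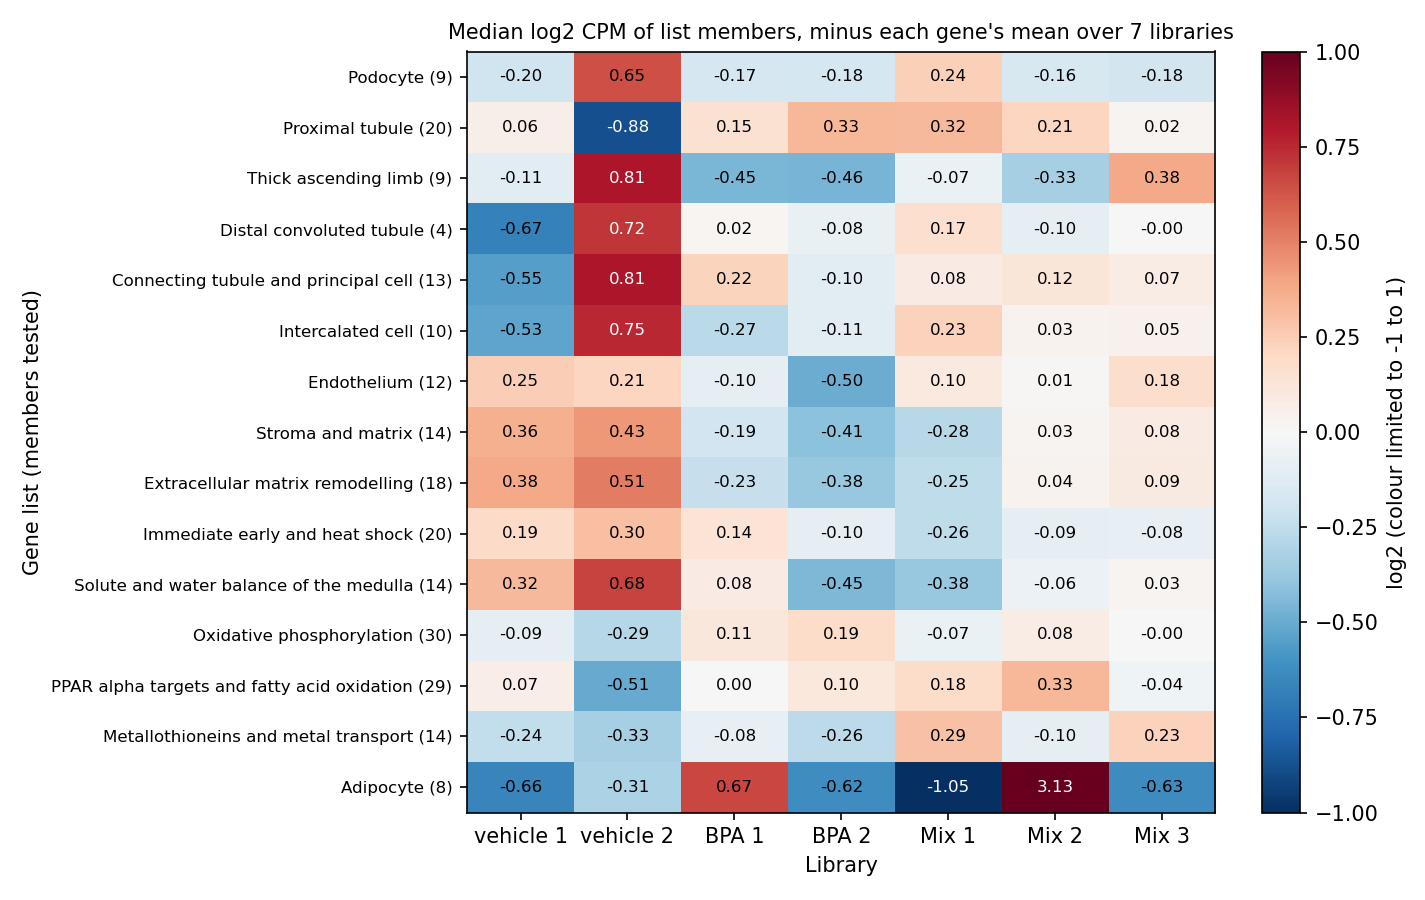
Median over list members (rows, number tested in brackets) of log2 CPM minus each gene's mean over the 7 libraries (columns); red is above and blue below the mean, with colour limited to 1 on either side. Vehicle 2 stands at -0.88 for the proximal tubule and between 0.65 and 0.81 for podocytes and distal segments, while vehicle 1 and 2 are both raised for matrix remodelling (0.38 and 0.51).

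Lists of matrix and stromal genes had negative medians whichever vehicle rat was used. All 18 tested genes of extracellular matrix remodelling had negative differences (median -0.51), and 9 had groups apart downward, against 9.04% of all genes. Fn1, fibronectin, stood at 160 and 139 CPM in vehicle and 56.2, 44.5, 49.6, 60.1 and 101 CPM in treated kidneys (-1.26 ± 0.27). Col5a2, a fibrillar collagen chain, stood at 29.7 and 21.6 CPM in vehicle and 8.78 to 13.6 CPM in treated kidneys (-1.06 ± 0.24). Mix 3 was the treated rat closest to vehicle for Fn1, and no treated rat reached either vehicle value. The list median was -0.65 without vehicle 1 and -0.56 without vehicle 2, where 1 of 18 and 3 of 20 genes were positive.

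Of 14 stromal markers 13 were negative (median -0.47) and 6 had groups apart downward, against 9.04% of all genes. This list shares Fn1 and several collagens with the matrix list. Mgp, an inhibitor of calcification, stood at 480 and 530 CPM in vehicle and 310 to 443 CPM in treated kidneys (-0.41 ± 0.19). Sparc, a matrix-binding glycoprotein, stood at 727 and 802 CPM against 665 to 707 CPM (-0.15 ± 0.16), a difference smaller than its standard error although the groups were apart. The summed level of the stromal markers was 2565 and 2487 CPM in vehicle and 1687 to 2302 CPM in treated kidneys. The stromal median was -0.50 without vehicle 1 and -0.49 without vehicle 2, where 3 and 4 of 15 markers were positive.

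Endothelial markers were negative in 10 of 12 (median -0.42), 3 of them apart, against 9.04% of all genes. Emcn, the sialomucin endomucin of capillary endothelium, stood at 138 and 127.3 CPM in vehicle and 72.4, 61.1, 61.8, 85.5 and 100 CPM in treated kidneys (-0.80 ± 0.21). Plvap, a diaphragm protein of fenestrated endothelium, stood at 111.7 and 116 CPM in vehicle and 62.0 to 129 CPM in treated kidneys (-0.12 ± 0.26), with overlapping groups. The median was -0.22 without vehicle 1 and -0.21 without vehicle 2.

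Of 20 immediate early and heat shock genes, which respond within minutes to handling and stress, 15 were negative (median -0.33). In 5 of them groups were apart downward, against 9.04% of all genes. Besides Hspa1b and Hspa1a, Dusp1, a phosphatase that ends MAP kinase signalling and was listed with glucocorticoid-induced genes, stood at 35.0 and 35.7 CPM in vehicle and 18.9 to 26.7 CPM in treated kidneys (-0.62 ± 0.19). That glucocorticoid list itself was positive in 10 of 15 members, with a median of 0.37. The median of the immediate early and heat shock list was -0.39 without vehicle 1 and -0.29 without vehicle 2. Solute and water balance genes of the medulla were negative in 12 of 14 (median -0.52), with medians of -0.82 and -0.34 without vehicle 1 and 2. Cryab, a small heat shock protein of the inner medulla that was listed with the thin limb, stood at 565 and 561 CPM in vehicle and 227 to 437 CPM in treated kidneys (-0.68 ± 0.23). How much medulla each piece of kidney held is not given, and its part in these differences was not tested.

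**Figure D4:**
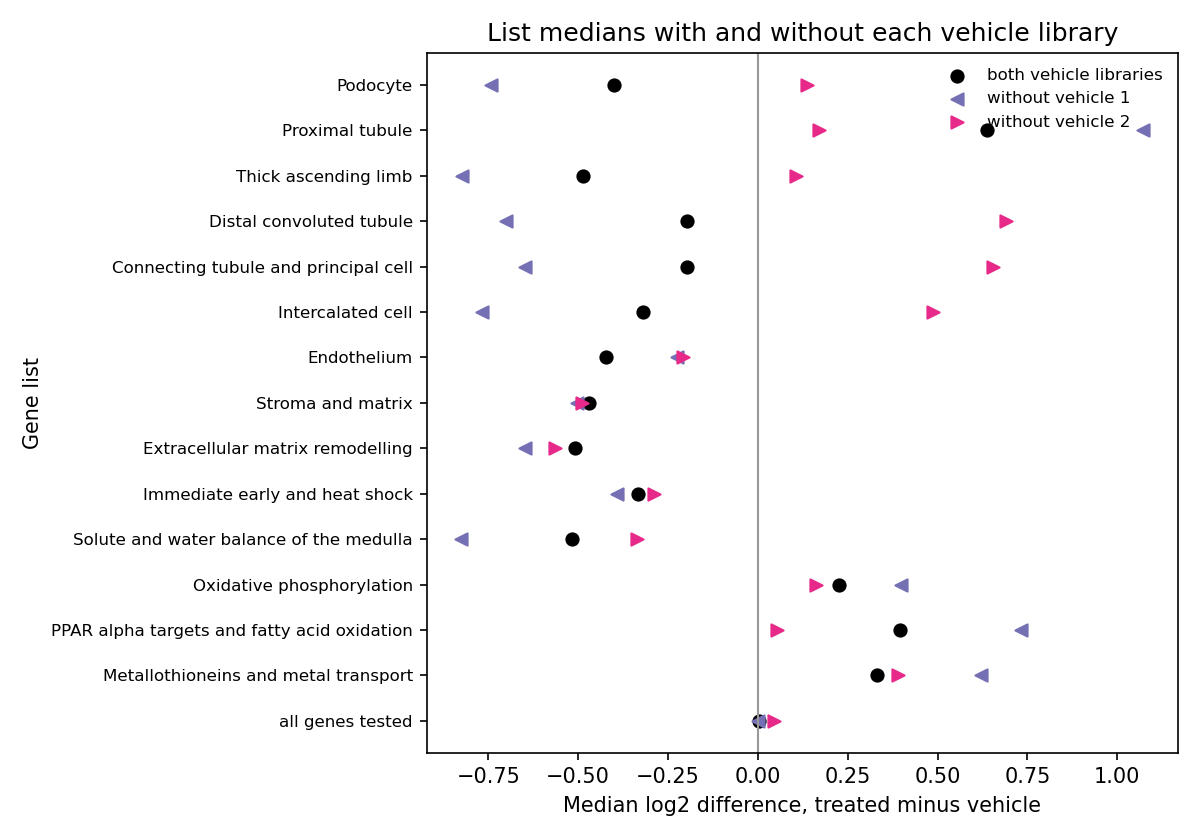
Median log2 difference, treated minus vehicle (x axis), of each gene list (rows) with both vehicle libraries (black circles), without vehicle 1 (left-pointing triangles) and without vehicle 2 (right-pointing triangles). Podocyte and distal segment medians change sides of 0 without vehicle 2, whereas matrix remodelling stays between -0.65 and -0.51.

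With both vehicle rats, mitochondrial and metabolic lists were higher in treated kidneys by smaller amounts. Of 30 oxidative phosphorylation genes 27 were positive (median 0.23), 10 with groups apart upward and 1 downward, against 9.69% and 9.04% of all genes. Cox5b, a subunit of cytochrome c oxidase, stood at 754 and 608 CPM in vehicle and 1298, 1530, 1258, 1205 and 1334 CPM in treated kidneys (0.96 ± 0.20). Ndufv1, a subunit of complex I, stood at 201.4 and 209 CPM against 261 to 300 CPM (0.49 ± 0.16). The list median was 0.40 without vehicle 1 and 0.16 without vehicle 2.

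Of 29 genes of fatty acid oxidation and PPAR alpha, the lipid-sensing receptor, 24 were positive (median 0.40). In 5 of them groups were apart upward, against 9.69% of all genes. Ucp2, a carrier of the inner mitochondrial membrane, stood at 43.7 and 43.1 CPM in vehicle and 77.1, 63.8, 63.3, 87.0 and 80.3 CPM in treated kidneys (0.78 ± 0.19). Ech1, an isomerase of fatty acid oxidation, stood at 341 and 207 CPM against 420 to 567 CPM (0.81 ± 0.23). The vehicle pair was nearly equal for Ucp2 and unequal for Ech1. The list median was 0.73 without vehicle 1 and 0.05 without vehicle 2. The median of all genes without vehicle 2 was 0.046, so the higher level of this list rests on that library.

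Genes that handle foreign compounds, steroids and metals did not share 1 direction. Of 25 glutathione genes 18 were positive (median 0.21), 7 apart upward and 1 downward, against 9.69% and 9.04% of all genes. Beside Mgst3, the transferase Gstt3 stood at 667 and 503 CPM in vehicle and 818 to 1092 CPM in treated kidneys (0.74 ± 0.20). Without vehicle 2 the glutathione median was -0.0059, so its direction rests on that library. Of 23 targets of the antioxidant regulator NRF2, 13 were positive and 10 negative (median 0.07). Ephx1, an epoxide hydrolase, stood at 121 and 79.5 CPM in vehicle and 170 to 205 CPM in treated kidneys (0.87 ± 0.20). Gclm, a subunit of the enzyme that starts glutathione synthesis, stood at 529 and 748 CPM in vehicle and lower, at 312 to 440 CPM, in treated kidneys (-0.68 ± 0.20). Among 18 genes of glucuronidation and sulfation, the conjugation steps that bisphenols undergo, 11 were positive and 7 negative (median 0.09, but -0.036 and -0.076 without vehicle 1 and 2). Ugt2b15, a glucuronosyltransferase, stood at 197 and 411 CPM in vehicle and 157, 43.9, 36.6, 25.4 and 134 CPM in treated kidneys (-1.94 ± 0.58).

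Of 19 cytochromes P450 14 were positive (median 0.28; 1.12 without vehicle 1 and 0.048 without vehicle 2). Cyp2c23, an arachidonic acid epoxygenase of kidney, stood at 1888 and 1097 CPM in vehicle, 1997 and 2008 CPM in BPA and 3116, 2803 and 2991 CPM in Mix (0.79 ± 0.28). Cyp2j4, another epoxygenase, stood at 14.0 and 13.2 CPM in vehicle and 1.43 to 6.04 CPM in treated kidneys (-1.74 ± 0.45). Of 16 genes of sex steroid receptors and their responses 6 were positive and 10 negative (median -0.19). In this list Esrra, an orphan receptor of mitochondrial genes, stood at 199 and 106 CPM in vehicle and 239 to 372 CPM in treated kidneys (0.90 ± 0.27). Akr1c19, a hydroxysteroid dehydrogenase of the family of Akr1c14, had the opposite sign to it, with 12.5 and 5.90 CPM in vehicle and 2.28 to 4.85 CPM in treated kidneys (-1.53 ± 0.46).

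Bhmt, which methylates homocysteine, stood at 67.6 and 32.0 CPM in vehicle and 96.05 to 173 CPM in treated kidneys (1.23 ± 0.32). Mt1a, a metal-binding metallothionein, stood at 1550 and 559 CPM in vehicle and 2387, 4346, 3734, 3412 and 1611 CPM in treated kidneys (1.55 ± 0.45). Mix 3 was barely above vehicle 1 for Mt1a, while the zinc and iron importer Slc39a14 was lower in treated kidneys, at 1.79 to 4.71 CPM against 8.50 and 9.47 CPM (-1.55 ± 0.44). Metallothionein and metal transport genes were positive in 9 of 14, with a median of 0.33 that was 0.62 and 0.39 without vehicle 1 and 2.

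Rdh16, a retinol dehydrogenase, stood at 5.26 and 5.43 CPM in vehicle and 24.2, 11.0, 9.27, 17.8 and 11.3 CPM in treated kidneys (1.45 ± 0.42). Cyp27b1, the enzyme that activates vitamin D, stood at 11.9 and 1.55 CPM in vehicle and 22.3, 18.1, 29.2, 11.1 and 40.8 CPM in treated kidneys (1.90 ± 0.66). For Cyp27b1, Mix 2 lay under vehicle 1, so the groups overlapped. Of 14 clock genes 9 were positive (median 0.32), among them Cry2, a repressor of the clock, with 5.87 and 12.1 CPM in vehicle and 11.9 to 22.1 CPM in treated kidneys (1.07 ± 0.35). The hour of sampling is not given, and its part was not tested. Of 22 tubular injury and repair genes 9 were positive and 13 negative (median -0.14; -0.066 without vehicle 1 and 0.088 without vehicle 2). Vcam1, an adhesion molecule of injured tubules, stood at 40.1 and 33.7 CPM in vehicle and 17.7 to 30.8 CPM in treated kidneys (-0.62 ± 0.22).

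BPA alone and the mixture were each compared with vehicle in 1 fit of the 3 groups. No gene passed in either comparison with edgeR (smallest adjusted p 0.151 and 0.203), where an unadjusted p below 0.05 was reached by 1754 (16.4%) and 1111 genes (10.4%). DESeq2 called 314 and 68, with no adjusted p for 8846 and 10226 rows. Without vehicle 1, edgeR called 806 and 329. The comparisons share the vehicle rats, so each gene's values are given side by side with no measure of agreement. For BPA the named genes included Syne4, a nuclear envelope protein, at 18.4 and 11.5 CPM in vehicle, 97.7 and 121 in BPA and 86.9, 36.5 and 46.7 in Mix. They also included Lrp1, an endocytic receptor, at 22.9 and 24.1 in vehicle, 7.73 and 6.26 in BPA and 12.5, 13.6 and 16.7 CPM in Mix. Trabd, with 37.4 CPM in both vehicle rats, stood at 80.6 and 87.0 in BPA and 64.2 to 68.7 CPM in Mix. Mapkapk3, a stress-activated kinase, stood at 76.1 and 89.2 in vehicle, 35.0 and 29.98 in BPA and 44.1 to 52.9 CPM in Mix. For Mix, the named gene not yet given was Cyr61, a matricellular growth regulator, at 35.4 and 32.9 in vehicle, 21.3 and 19.7 in BPA and 11.0, 10.8 and 12.3 CPM in Mix. In all 5 genes the BPA and Mix rats lay on the same side of vehicle and at different distances from it. Each was picked by the comparison of 1 treatment with vehicle, which favours a larger distance for that treatment, so the distances are a description.

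Mix and BPA, at the same total dose by mouth, were the only pair of treatments that could be compared directly. No gene passed with edgeR (smallest adjusted p 0.683; 779 genes, 7.29%, had an unadjusted p below 0.05), and DESeq2 called 12. For 11 of the 12 genes named against vehicle the 95% interval of Mix minus BPA included 0. For 8 of the 12 it lay within 1 log2 unit of 0, which bounds the difference and does not show that the treatments act alike. These genes were chosen for a small p over all 5 treated rats, a choice that favours a small gap between BPA and Mix, so the tally is a description. The exception was Akr1c14, with a Mix minus BPA log2 difference of 0.89 and an interval of 0.17 to 1.62. For Col4a4 the interval was -0.53 to 0.95, and for Mgst3 it was -0.67 to 0.33. The mixture contains BPA, and neither BPF nor BPS was given alone, so no difference can be assigned to 1 of the compounds.

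The genes named between Mix and BPA had the smallest p among those with separate BPA and Mix rats, so that separation was set by the choice. Their vehicle values lay inside, near or between those groups. Alkbh1, a nucleic acid demethylase, stood at 12.7 and 11.2 CPM in BPA and 29.1, 26.9 and 33.96 in Mix, with vehicle at 23.7 and 22.97. App, the amyloid precursor protein, stood at 182 and 202.03 CPM in BPA and 391, 336 and 340 in Mix, with vehicle at 312 and 334. Hnrnph2, a splicing regulator, stood at 20.7 and 17.5 CPM in BPA and 33.1 to 37.4 in Mix, with vehicle at 27.3 and 27.8. In the other direction Nudt16, a nucleotide hydrolase, stood at 53.8 and 50.1 CPM in BPA and 25.1, 21.6 and 17.8 in Mix, with vehicle at 28.9 and 37.1. Rbm3, a cold-inducible RNA-binding protein, stood at 39.7 and 56.8 CPM in BPA and 18.4 to 23.1 in Mix, with vehicle at 21.9 and 21.7.

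Akr1c2, an aldo-keto reductase, was present in some female rats and near 0 in others, in kidney and liver alike. In kidney it stood at 234 and 278 CPM in BPA 1 and 2 and at 0 to 0.571 CPM in the 3 Mix kidneys. It also split the vehicle rats, at 253 CPM in rat G112 and 0.310 CPM in rat G113. In liver the same rats G112, G127 and G128 had 266, 101 and 269 CPM, and rat G126 of the BPA group, which has no kidney library here, had 127.3 CPM. The livers of G111, G113, G201, G202 and G203 had 0.648 to 2.56 CPM. The level thus followed the rat across both organs. Since 1 vehicle rat was on each side, treatment and rat cannot be told apart in the BPA and Mix groups. Male kidneys, on the joint scale, had 0.303, 0 and 17.2 CPM in vehicle and 0.206, 10.8 and 11.2 CPM in Mix. The male BPA kidneys were the highest of the males, at 48.0, 30.3 and 42.9 CPM.

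Hspa1b was also followed through the rats' other organs. In liver it stood at 101, 112.6 and 57.6 CPM in vehicle rats G111, G112 and G113 and at 93.9 CPM in BPA rat G126, while the 5 rats with treated kidney libraries had 27.2 to 38.5 CPM. In ovary it stood at 80.5, 84.9 and 49.8 CPM in the vehicle rats, 92.1 CPM in G126 and 12.02 to 31.2 CPM in those 5. Rat G126 was treated and lay with the vehicle rats in both organs. In thyroid the order did not hold: Hspa1b stood at 44.9, 19.3 and 0.137 CPM in G111, G112 and G113 and at 17.3 to 45.8 CPM in the 6 treated rats (log2 difference 0.43, adjusted p 0.783 in edgeR). Over all 9 rats the treated minus vehicle log2 difference was -1.12 in liver and -1.15 in ovary, with adjusted p of 0.284 and 0.161 in edgeR. None of the other 11 genes passed in liver or ovary, where Bhlhe22 was not tested in ovary; Col4a4 had log2 differences of -0.09 and -0.13 and Mgst3 of 0.63 and 0.45.

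**Figure D5:**
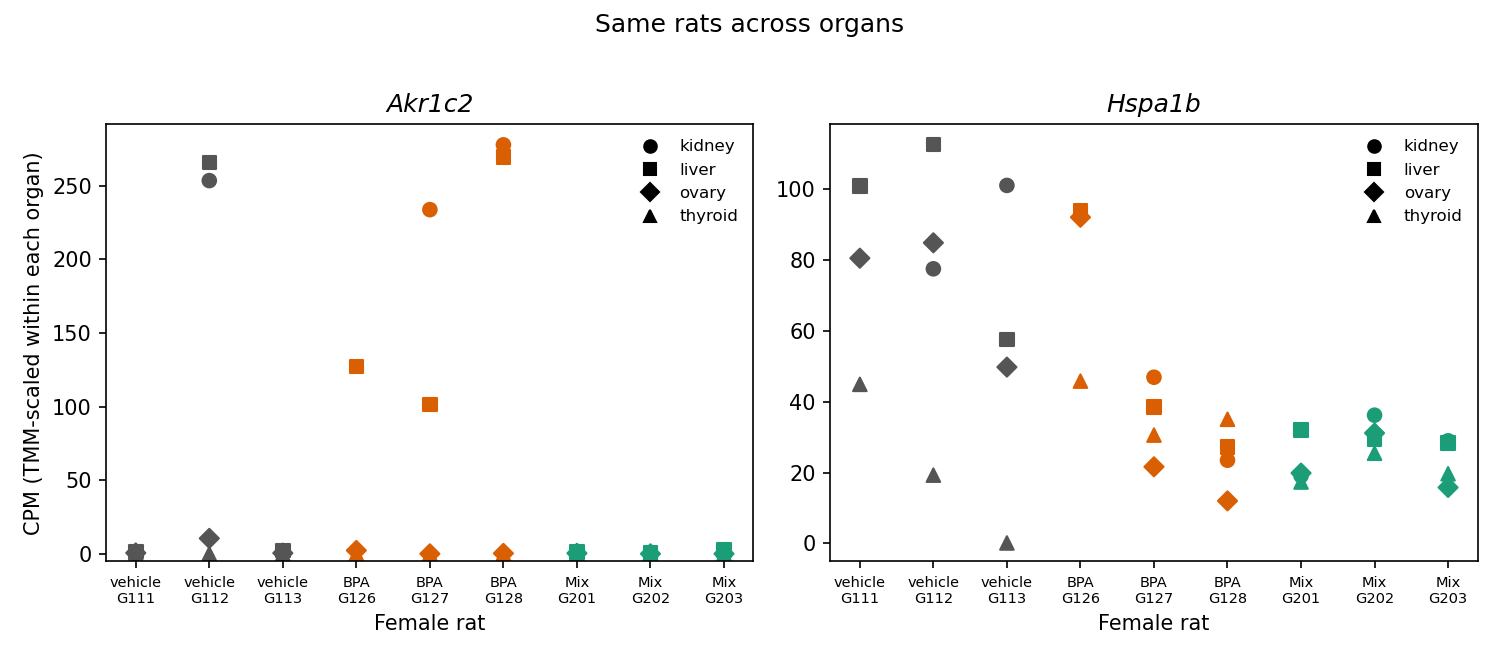
Akr1c2 (left) and Hspa1b (right) in CPM for each female rat (x axis) in kidney (circles), liver (squares), ovary (diamonds) and thyroid (triangles), coloured by treatment. Akr1c2 is above 100 CPM in the kidney or liver of G112, G126, G127 and G128 alone, and Hspa1b in treated rat G126 sits at 92.1 CPM in ovary and 93.9 CPM in liver with the vehicle rats, while thyroid values overlap; rats G111 and G126 have no kidney point.

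Markers of other tissues varied by library. The 10 adipocyte markers found summed to 1103 CPM in Mix 2 and to 83.5 to 215 CPM in the other 6, led by Fabp4, the adipocyte fatty acid-binding protein, at 498 CPM in Mix 2 and 13.2 to 78.7 CPM elsewhere. Smooth muscle markers summed to 380 CPM in Mix 2 and 85.5 to 171 CPM elsewhere. The 12 testis germ cell markers, which a female kidney should lack, summed to 29.3 CPM in BPA 2 and 45.9 CPM in Mix 1 and to 0.999 to 7.64 CPM in the rest, mostly from Tnp1. Leaving out Mix 2, BPA 2 or Mix 1 left the count of genes passing the adjusted threshold at 0 with edgeR.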

How the data were processed

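Per the labels' protocols, RNA came from a TRIzol extraction and sequencing libraries from QuantSeq 3′ chemistry. FastQC, Bowtie2, bedtools and edgeR, with the rat build rn6, are named without versions in the submitters' processing notes. The authors deposited whole-number counts per gene for 70 libraries in 17048 rows, of which 316 share 149 repeated symbols and were kept as separate rows; use of strand and of reads with several alignments is not given in the sources used here.

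The counts were filtered (filterByExpr), scaled by TMM and tested with edgeR 4.0.16 (quasi-likelihood) in R 4.3.3, with Benjamini-Hochberg adjustment over all genes tested and a threshold of 0.05; the code was tested on simulated data. CPM are TMM-scaled. Treated against vehicle used 7 libraries, BPA and Mix a fit of 3 groups, the sexes 16 libraries in 6 groups. Named genes have groups apart and average 2 or more in log2 CPM, and, since none passed, are the 6 per direction (3 for BPA, Mix and their difference) with the smallest p; for the sexes the 5 with the smallest p that passed; for a pathway list the 2 with the smallest p and for a cell type list the 2 with most counts, of which some are given. Other list members and Col4a3 were chosen after their values were seen. Some genes the rule names are not reported here. The members and the 47 lists were chosen with earlier results of these data known. Alternatives were RLE scaling, no filter, DESeq2 1.42.0, the replicate number as a block, ribosomal RNA rows removed or as covariate, a joint fit, 3 groups and leaving out each library. Promoter sequences are RefSeq's.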

Additional observations from a re-analysis of the deposited data

Results flagged for a closer look

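Cbs stood at 265 CPM in Mix 1, far from the other 4 treated kidneys, which had 209 to 224 CPM; 24 genes were examined for such a gap among the 5 treated libraries, and chance gives about 1 in 20. Treated against vehicle differed between female and male kidneys, by edgeR's test of the difference itself, for the 5 genes with the smallest p. The female minus male log2 differences were -2.69 for Tcf21, -2.12 for Mylip, 1.63 for Basp1, -2.64 for Dmbt1 and -2.19 for Abca8a, with adjusted p of 0.00267 to 0.0301. With each of the 16 libraries left out in turn, the call was lost in 4 fits for Mylip, 8 for Basp1, 8 for Dmbt1 and 7 for Abca8a, and in none for Tcf21. In each, the male and female differences had opposite signs. Dmbt1, Abca8a and Basp1 also split by ribosomal RNA share among male kidneys, and its part in the difference was not tested.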

How the results depend on the processing

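Counts of genes passing the adjusted threshold depended on the processing more than gene directions did, though genes picked for groups apart could hardly reverse. For treated, BPA and Mix against vehicle and for Mix against BPA, each 0 with edgeR, the counts were 41, 258, 72 and 12 with no filter, 232, 314, 68 and 12 with DESeq2, and 398, 853, 352 and 1 with the ribosomal RNA share as covariate. That share mainly set vehicle 1 apart from the other female kidneys. The joint fit gave 12 for treated and 14 for BPA. Leaving out 1 library gave 0 to 323, 0 to 806, 0 to 329 and 0 to 1; the highest counts against vehicle came without vehicle 1, and without vehicle 2 they were 0, 0 and 1. The sex difference (68 and 45 genes) became 296 with no filter, 711 with DESeq2, and 1 to 812 without 1 library. The replicate numbers do not pair rats (correlations of same-numbered rats' deviations -0.21 to 0.05); with the replicate block the count was 0 for all 4 and 18 for the sexes. With only the rats that have a kidney library, liver went from 14 to 3 calls and thyroid from 3 to 1533; ovary had 991 and 712. The cause was not tested.

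Of 1512 recomputed gene values, 19 in 12 genes of the lists reversed. Without 1 library the log2 differences ranged from -0.84 to 0.060 for Podxl, -1.35 to 0.14 for Nphs1, -0.90 to 0.090 for Slc12a1, -0.80 to 0.56 for Wnk1, -0.91 to 1.02 for Slc12a3, -0.55 to 0.42 for Atp6v1g3, -0.11 to 1.31 for Slc27a2 and -0.39 to 0.00037 for Mme, the sign changing without vehicle 2. They ranged from -0.47 to 0.82 for Klk1, -0.17 to 1.59 for Acta2, -0.45 to 1.32 for Myh11 and -0.20 to 0.018 for Plvap. With the covariate Klk1, Acta2 and Myh11 were at -0.30, -0.38 and -0.35. With 2 vehicle rats, the 3.99-fold gap of Col4a4 did not pass in edgeR's main fit. It passed with DESeq2 (adjusted p 1.05e-07), as did Mgst3, Cbs, Psmc4, Ddc, Tmbim6 and Hspa1b. DESeq2 gave no adjusted p for Akr1c14, Tcf21, Mylip, Slc38a7 and Bhlhe22.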
